A study of Mus musculus with 6 samples.

Results

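The tight junction genes Cldn1, Cldn5, Cldn11, Ocln, Tjp1, Jam2, Jam3, F11r and Esam were followed through 6 RNA-seq libraries of mouse endothelial cells (ECs). They were chosen by symbol, and all 9 were found among the 24421 genes of the count table. Skin blood ECs (BECs) came from E15.5 embryos, as 1 library of Tie2-Cre(+); Dot1l 2f/2f embryos (cKO) and 1 library of Tie2-Cre(−); Dot1l 2f/2f littermates (Cont), which carry the floxed alleles too and are labelled wild type. Tie2-Cre is active in endothelium and in blood cells as well, and the BECs were sorted as negative for F4/80, CD45 and the lymphatic marker Lyve1. A figure legend of the study also lists the BEC marker CD31 as positive in this isolation. Cultured BECs of the mouse embryonic yolk sac line CRL-2581 and lymphatic ECs (LECs) of the mouse embryonic dermal culture C57-6064L were transduced with lentivirus. The vector carried dCas9 fused to VP64 with guides to the Dot1l promoter (OE-BECs and OE-LECs), the controls received empty lentivirus (Cont BECs and Cont LECs), and GFP-positive cells were sorted. RNA of a few embryos or culture flasks was pooled into 1 library per condition, so no spread between replicates can be given and no test of a condition was possible. Every comparison is one of 2 libraries, and the intervals given with the values are 95% intervals that cover counting error only.

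Tight junctions seal the space between neighbouring ECs. Claudins are membrane proteins with 4 spans whose strands set which solutes pass between cells, and Cldn5 is the claudin best known for the barrier of brain and other blood vessels. Occludin, encoded by Ocln, joins the same strands. The junctional adhesion molecules F11r (JAM-A), Jam2 (JAM-B) and Jam3 (JAM-C) and the endothelial cell-selective adhesion molecule Esam are immunoglobulin-like proteins of the contact. Tjp1 (ZO-1) is the scaffold on the inner face that ties these proteins to actin.

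The libraries held between 8863349 and 31032461 counted reads, and 3 reads correspond to between 0.0967 and 0.339 counts per 1000000 reads (CPM). Reads of Dot1l numbered 762 in Cont and 944 in cKO (log2 ratio -0.07, interval -0.21 to 0.07), and for this reason the skin library is called the library labelled cKO. Reads over the whole gene do not separate the floxed part, and the RT-qPCR by which the study checked the knockout is not analysed here. In OE-BECs Dot1l was 2.78-fold higher and in OE-LECs 2.30-fold higher than in the control. All 12 pan-endothelial genes had reads in each library, with Cdh5 (VE-cadherin) between 968 and 3334 CPM. Prox1, the defining transcription factor of lymphatic endothelium, had no read in either LEC library and 147 CPM in skin Cont BECs, where Lyve1 had 1027 CPM. In culture Lyve1 was higher in LECs (1998 CPM in Cont LECs against 604 in Cont BECs). Of the 9 lymphatic genes listed, Pdpn, Ccl21a and Mmrn1 also had 0 reads in Cont LECs, and Reln had 1. Reads in Cont LECs and Cont BECs were 2785 and 2552 for Flt4, 750 and 500 for Itga9, and 248 and 236 for Foxc2. The 2 libraries held 26117161 and 17685615 reads, so Flt4 and Foxc2 were lower in Cont LECs per read counted. The names BEC and LEC are those of the labels.

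Cldn5 was the leading claudin of every library. Its level was 115 CPM in skin Cont BECs against 95.5 under the cKO label, 720.1 in cultured BECs with empty lentivirus against 212 with Dot1l OE, and 484 against 184 in the LEC pair. The cultured controls were highest, each cultured library lay above both skin libraries, and no neighbours in this order had overlapping counting intervals. Cont BECs held 6.26 times the Cldn5 level of skin Cont BECs (log2 ratio 2.65, interval 2.56 to 2.74). On a scale per length, as CPM per kilobase of merged exons, Cldn5 made up 75.6% of the summed level of 31 claudins in skin Cont BECs and 97.5% in Cont BECs. Cldn12, a claudin without the usual binding motif for ZO-1, had the second highest level in all 6 libraries and made up 14.7% of that sum in OE-LECs. Its counting interval overlapped that of Cldn11 in skin Cont BECs and those of Cldn4, Cldn11, Cldn20 and Cldn22 in the library labelled cKO.

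The other claudins of the group were genes of the skin libraries. Cldn11, the claudin of myelin and of Sertoli cells, stood at 14.0 CPM in skin Cont BECs, with 2.98 under the cKO label. In culture it had 0 reads in Cont BECs, 3 in OE-BECs and 0 in both LEC libraries, which is at or under the floor of 3 reads. Cldn1, a claudin of the epidermal barrier, had 8.35 CPM in skin Cont BECs, with 5.59 under the cKO label. In culture Cldn1 lay between 0 and 0.766 CPM, from 20 reads in Cont LECs, 6 in OE-LECs, 5 in Cont BECs and 0 in OE-BECs. The 2 skin libraries overlapped in their intervals for Cldn1 and did not for Cldn11. Both skin libraries also held RNA of other cells. The 16 keratinocyte genes summed to 309.5 CPM (Cont) and 472 CPM (labelled cKO), against 8.595 to 11.1 in culture. Krt5 and Krt14, which define basal keratinocytes, had 317 and 180 reads in skin Cont BECs and 0 in the 4 cultured libraries. The part of such cells in the Cldn1 and Cldn11 counts was not tested.

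**Figure D1:**
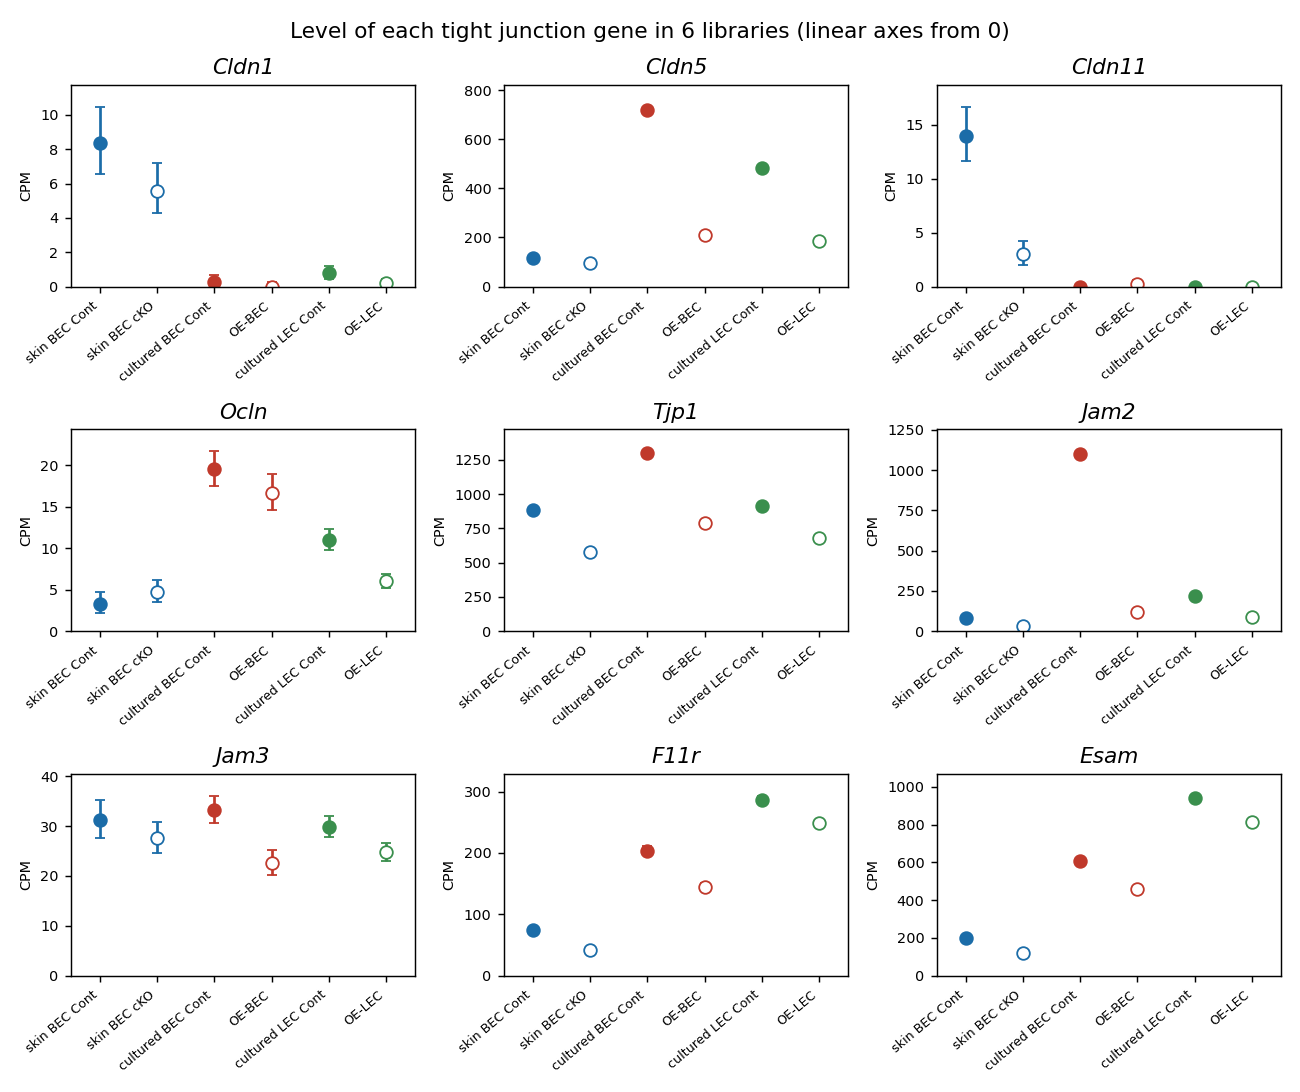
Level of the 9 tight junction genes in 6 libraries, as CPM on linear axes that start at 0. Each point is 1 library, filled for controls and open for cKO or OE, and bars are exact Poisson 95% intervals, which cover counting error only. Cldn5 and Jam2 stand highest in cultured Cont BECs, at 720.1 and 1103 CPM, and Cldn11 and Cldn1 are highest in the skin libraries.

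The 250 bases before the annotated start are shown for the 3 claudins of the group, since these genes differed so much in level between skin and culture. They are from RefSeq (GRCm38.p6, the build of mm10), and CCAAT, read on either strand, is in capitals. The Cldn5 stretch is chr16:18776597-18776846 on the plus strand, that of Cldn11 is chr3:31149670-31149919 on the plus strand, and that of Cldn1 is chr16:26371840-26372089 on the minus strand.
Cldn5: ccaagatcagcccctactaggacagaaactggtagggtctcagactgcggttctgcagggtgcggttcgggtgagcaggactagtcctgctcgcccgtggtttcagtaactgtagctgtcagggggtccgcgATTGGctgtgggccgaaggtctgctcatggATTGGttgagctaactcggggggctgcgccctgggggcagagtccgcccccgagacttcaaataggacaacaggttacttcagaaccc
Cldn11: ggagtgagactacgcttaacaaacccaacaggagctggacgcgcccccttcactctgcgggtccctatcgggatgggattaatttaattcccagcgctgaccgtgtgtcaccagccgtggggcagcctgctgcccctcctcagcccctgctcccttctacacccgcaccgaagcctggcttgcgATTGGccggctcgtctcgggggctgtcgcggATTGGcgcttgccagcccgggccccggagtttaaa
Cldn1: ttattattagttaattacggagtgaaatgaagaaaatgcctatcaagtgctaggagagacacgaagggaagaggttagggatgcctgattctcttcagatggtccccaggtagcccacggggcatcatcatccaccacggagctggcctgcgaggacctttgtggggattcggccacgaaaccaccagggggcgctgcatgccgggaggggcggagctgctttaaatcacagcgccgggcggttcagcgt
Cldn5 held 2 matches, which begin 118 and 88 bases before the start, and Cldn11 held 2, at 66 and 35 bases. Cldn1 held 0. Of the 32851 stretches of this length in the table, 33.8% held CCAAT and 10.1% held it at least 2 times. The other motifs searched on both strands were GGAA (in 93.4% of all stretches), AACAAT (9.42%) and TATAAA (12.4%). GGAA had 0 matches in Cldn5, 1 in Cldn11 and 1 in Cldn1, and neither AACAAT nor TATAAA was found in these 3 stretches. CCAAT was added to the search after the sequences were seen, and a match describes letters, not a bound factor. Entries were found for 6 of the 9 genes, and Jam2, Jam3 and Esam had none.

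Ocln, on chromosome 13 from 100496507 to 100552718, was the lowest of the genes detected in all libraries. It had 3.27 CPM in skin Cont BECs against 4.69 under the cKO label, 19.6 in cultured BECs with empty lentivirus against 16.6 with Dot1l OE, and 11.03 against 6.03 in the LEC pair. The 2 skin libraries overlapped in their counting intervals, and so did Cont BECs and OE-BECs. Per kilobase, Tjp1 stood 146 times above Ocln in skin Cont BECs and Cldn5 stood 109.7 times above it in Cont BECs.

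Tjp1, on chromosome 7 from 65296165 to 65527781, varied least but for Jam3. Its levels were 884 CPM in skin Cont BECs against 574 under the cKO label, 1297 in cultured BECs with empty lentivirus against 789.6 with Dot1l OE, and 913 against 679 in the LEC pair. Each control lay above its cKO or OE library, while skin Cont BECs and Cont LECs overlapped. Per kilobase, Tjp1 was the first of the 9 genes in both skin libraries (113 and 73.5). Cldn5 came first in Cont BECs (508.5) and Cont LECs (342), and Esam in OE-BECs (160.1) and OE-LECs (283). The first place in Cont LECs depends on the length used, since per kilobase of the longest transcript Esam (505) stood above Cldn5 (342) there.

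Jam2, on chromosome 16 from 84774123 to 84825928, had the widest range of the adhesion molecules. It had 81.5 CPM in skin Cont BECs against 32.5 under the cKO label, 1103 in cultured BECs with empty lentivirus against 122 with Dot1l OE, and 220.5 against 90.0 in the LEC pair. Cont BECs stood 13.5 times above skin Cont BECs and 5.004 times above Cont LECs. F11r, on chromosome 1 from 171437535 to 171464603, had 74.0 CPM in skin Cont BECs against 42.6 under the cKO label, 204 against 145 in the cultured BEC pair and 287 against 248.8 in the LEC pair. In each pair the control was higher, and no neighbours in the order overlapped. Jam3, on chromosome 9 from 27097384 to 27155421, had 31.2 against 27.5 CPM in the skin pair, 33.3 against 22.6 in cultured BECs and 29.8 against 24.7 in LECs, and each library overlapped in its interval with the next in order. The exons of Jam3 share 1159 bases with the antisense gene Gm48796, and whether the counting used strand was not resolved, so the Jam3 values are uncertain. Of the JAM genes, F11r had the highest level per kilobase in 5 libraries. The exception was Cont BECs, where Jam2 reached 182.5 (CPM per kilobase) and F11r 76.6.

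Esam, on chromosome 9 from 37528078 to 37538319, followed the order of F11r. It had 199 CPM in skin Cont BECs against 119 under the cKO label, 607 in cultured BECs with empty lentivirus against 459 with Dot1l OE, and 941.5 against 811 in the LEC pair. Both LEC libraries were above both cultured BEC libraries, and the skin libraries were lowest. Cont LECs held 1.55 times the Esam level and 1.41 times the F11r level of Cont BECs, while Cldn5 was 1.49-fold, Ocln 1.77-fold and Tjp1 1.42-fold higher in Cont BECs.

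**Figure D2:**
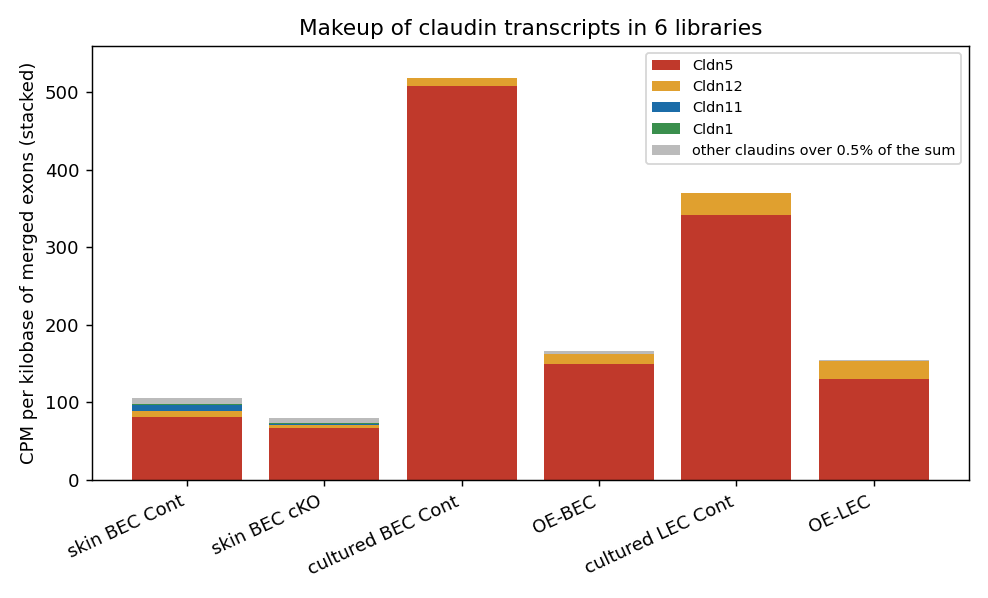
Makeup of claudin transcripts in 6 libraries, as stacked CPM per kilobase of merged exons. Claudins under 0.5% of a library's sum are left out, and Cldn5 makes up 75.6% of the summed level in skin Cont BECs and 97.5% in cultured Cont BECs.

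In skin, Cldn11 and Jam2 were the genes that differed most. Counts were normalized on each pair by the median of ratios, and a gene was called by the rule of the study's methods, which asks that the larger normalized count reach 5 in the cKO pair or 3 in an OE pair and exceed the smaller one more than 3-fold. Cldn11, on chromosome 3 from 31149920 to 31164324, counted 124 reads in Cont against 33, 4.88-fold lower under the cKO label (log2 ratio -2.29, interval -2.89 to -1.72). Of 9 genes it was the 1 called, against 2.41% of 15993 genes called lower. None of the 9 was called higher, against 5.17% of genes. By a 2-fold rule Cldn11 and Jam2 were lower and none was higher, against 5.23% and 10.4% of genes. Jam2, with 722 and 360 reads, was 2.61-fold lower (log2 ratio -1.38, interval -1.57 to -1.20), and 2.17% of tested genes had a lower ratio. F11r was 1.81-fold lower (656 and 472 reads), Esam 1.74-fold (1765 and 1317 reads), Tjp1 1.599-fold (7833 and 6365 reads) and Cldn1 1.55-fold (74 and 62 reads). Cldn5, with 1019 and 1058 reads, was 1.25-fold lower after normalization (log2 ratio -0.32, interval -0.45 to -0.20). Jam3 had a log2 ratio of -0.24 (interval -0.48 to 0.00) and Ocln one of 0.46 (interval -0.22 to 1.17), so no difference was detectable for either at this depth.

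For 7 of the 9 genes the library labelled cKO was lower by more than the counting interval, against 25.4% of the 15554 genes whose reads in both libraries summed to 10 or more. A gene with many reads passes the interval at a smaller difference, and such shares, here and below, were not matched for read depth. The median of the 9 log2 ratios was -0.68 (normalized counts plus 1), and that of the 15554 genes was 0.00. The pan-endothelial genes moved with them. Of 12, 10 were lower beyond the interval, their median was -0.60, and their summed level was 6732 CPM in Cont against 4318 CPM. When the pair was scaled to that sum instead, Cldn11 (log2 ratio -1.59) and Jam2 (-0.69) were still lower, F11r (-0.16) and Esam (-0.10) were near 0, Tjp1 was at 0.019, Cldn1 at 0.063, Cldn5 at 0.37, Jam3 at 0.46 and Ocln at 1.16. By that scaling the median of all genes was 0.69. In bulk RNA, fewer ECs and less RNA per EC cannot be told apart. Macrophage genes went the other way, with 11 of 12 higher beyond the interval (23.1% of all genes were) and sums of 4066 and 6370 CPM, although F4/80 and CD45 were used for depletion. Keratinocyte genes were higher for 8 of 15 with at least 10 reads and lower for 2, Krt14 and Krt17, while 8 of 10 fibroblast genes and 7 of 10 pericyte genes were lower. Of the 8 lymphatic genes with at least 10 reads, 5 were lower and 2 higher, and Prox1 had 1304 and 883 reads. The immediate early and stress list had 17 of 20 genes lower and 3 higher. The sums of the remaining lists, Cont first, were 59.1 and 86.9 CPM for 10 Schwann cell and neural crest genes and 179 and 311 CPM for 10 platelet genes. Most of the platelet sum came from Pf4, with 1331 and 3118 reads. Of 8 platelet genes with at least 10 reads, 5 had a log2 ratio below 0 and 3 above it (median -0.20). The part of these cells in the differences of the tight junction genes was not tested.

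**Figure D3:**
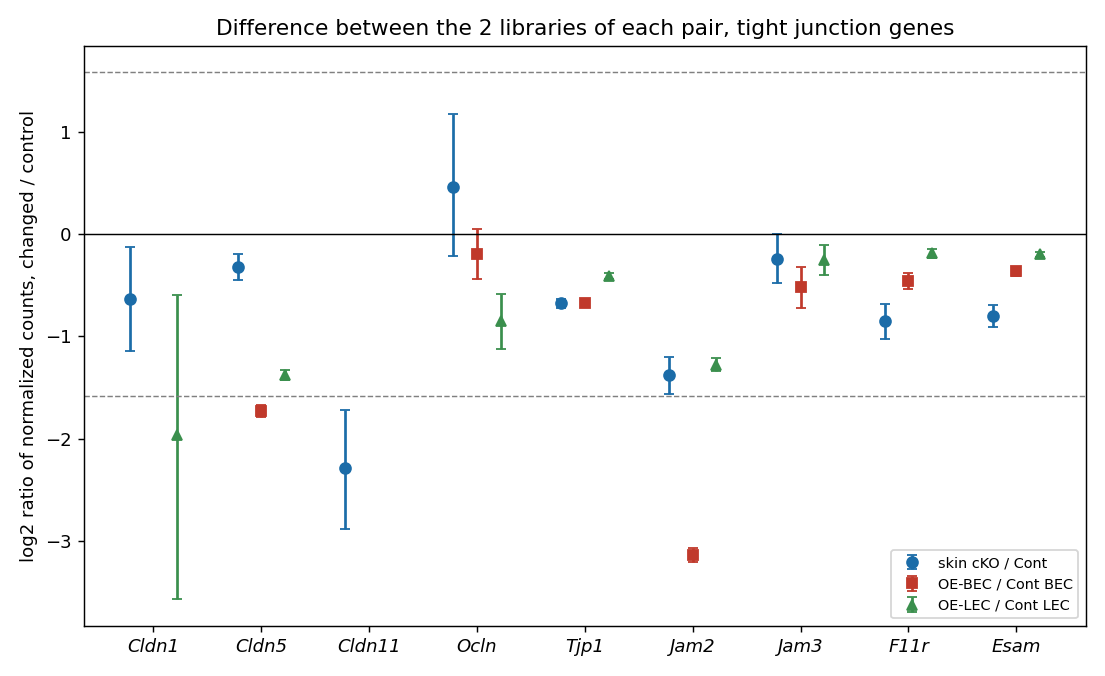
Log2 ratio of normalized counts of the cKO or OE library to its control for each tight junction gene. Bars are exact 95% intervals from the reads of both libraries, dashed lines mark a 3-fold difference, and pairs with a library at 0 reads are not drawn. Jam2 in OE-BECs is farthest from 0, at -3.14, and Ocln in skin is the only point above 0.

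In OE-BECs, Jam2 and Cldn5 were far lower than in Cont BECs. For Jam2, the reads were 19513 against 1698, an 8.81-fold lower level in OE-BECs (log2 ratio -3.14, interval -3.21 to -3.07), with 0.888% of 13396 tested genes at a lower ratio. Cldn5, on chromosome 16 from 18776847 to 18778262, gave 12735 against 2950 reads, 3.31-fold lower (log2 ratio -1.73, interval -1.79 to -1.67). Both were called by the 3-fold rule, which called 5.27% of 14792 genes lower. The rule also counted Cldn1 as lower on 5 and 0 reads, with an interval that reaches up to a log2 ratio of 0.51, and Cldn11 as higher on 0 and 3 reads, with one that begins at -0.89. Neither difference was detectable at this depth, and no fold is given. The study reports altered Cldn1 in both OE cell types by RT-qPCR, which is not analysed here, and in genome browser tracks. Upward calls made up 8.02% of the genes.

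Smaller differences in the same direction were found for Tjp1, 1.599-fold lower in OE-BECs (22934 and 11002 reads), for Jam3, 1.43-fold (589 and 315 reads), for F11r, 1.37-fold (3608 and 2016 reads), and for Esam, 1.29-fold (10730 and 6394 reads). For Ocln the counting interval spanned 0, with 346 and 232 reads (log2 ratio -0.19, interval -0.44 to 0.05). Thus 6 of the 7 genes that reached 10 reads were lower beyond the counting interval, against 30.0% of all such genes. The median over the 7 was -0.52, beside -0.01 over all genes. Of the pan-endothelial genes 10 of 12 were lower too, with a median of -0.29 and sums of 8044 CPM in Cont BECs and 5656 CPM in OE-BECs. The 1 called was Sox18, a transcription factor of endothelium, with 1436 and 247 reads. Neither OE pair was scaled to its pan-endothelial sum, so how far the smaller ratios depend on that choice was not tested. Of the marker lists of other cells, 8 of 16 keratinocyte, 6 of 12 macrophage, 3 of 10 pericyte and 2 of 10 fibroblast genes had 0 reads in both libraries, among them Krt5, Krt14, Adgre1, C1qa, Rgs5 and Col3a1. The list sums in Cont BECs and OE-BECs were 8.595 and 9.40 CPM for keratinocytes, 64.9 and 34.5 CPM for macrophages, 3.28 and 4.88 CPM for pericytes and 3.22 and 7.03 CPM for fibroblasts. Of the members with reads, Cd68 had 1093 and 448, Lyz2 had 40 and 7 (called lower), Pdgfrb had 29 and 41, and Col1a2 had 0 and 17 (called higher). Their part in the differences was not tested. Rn45s, a gene of ribosomal RNA, made up 5.91% of Cont BEC reads against 10.9% for OE-BECs, which lowers every CPM of OE-BECs. With total counts that leave out Rn45s and small RNA genes, Jam2 was at -3.10 and Cldn5 at -1.69.

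In OE-LECs, Cldn5 and Jam2 were also lower than in the control, by less than in OE-BECs, and Cldn1 had the lowest ratio, on few reads. For Cldn5, the reads were 12650 against 5714, a 2.60-fold lower level in OE-LECs (log2 ratio -1.38, interval -1.42 to -1.33). Jam2 gave 5758 against 2793 reads, 2.42-fold lower (log2 ratio -1.27, interval -1.34 to -1.21). Neither reached 3-fold, and both passed a 2-fold rule, by which 4.26% of 13883 genes were lower and 4.98% higher. Cldn1, on chromosome 16 from 26356642 to 26371841, was the 1 member called at 3-fold (2.09% of genes were called lower and 2.77% higher), from 20 to 6 reads, with a log2 ratio of -1.97 (interval -3.57 to -0.60). Ocln was 1.81-fold lower (288 and 187 reads, log2 ratio -0.85, interval -1.13 to -0.58). Tjp1 was 1.33-fold lower (23843 and 21062 reads), and Jam3, F11r and Esam were 1.19-fold, 1.14-fold and 1.15-fold lower. All 8 genes that reached 10 reads were lower beyond the interval, against 21.4% of 13028 genes, and their median was -0.63 beside 0.00. Read depth weighs on that count, since Cdh5, with 50837 and 58415 reads, also passed as lower at a log2 ratio of -0.03. Pan-endothelial genes were lower for 8 of 12 and higher for 4, with sums of 7320 and 7015 CPM, and Sox18 (1281 and 477 reads) was again the 1 called.

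Across the pairs, which share no library, Cldn5, Tjp1, Jam2, F11r and Esam were lower than the control beyond the counting interval in all 3. They are 5 of the 7 genes that reached 10 reads in each pair. Without a match for read depth, 5.09% of 12206 such genes met the same condition. Jam2 was more than 2-fold lower in all 3 pairs, as were 0.139% of these genes, and Cldn5 and Jam2 were so in both OE pairs, as were 1.15% of 12570 genes. These conditions were set after the values were seen. With the skin pair scaled to the pan-endothelial sum, Cldn5 and Tjp1 were not lower there, F11r (-0.16) and Esam (-0.10) were near 0, and Jam2 (-0.69) was not 2-fold lower, so that neither statement on all 3 pairs holds by that scaling. The log2 ratio of Jam2 in OE-BECs was lower than that in OE-LECs by 1.87 (difference -1.87, interval -1.96 to -1.77). For Cldn5 the difference was -0.35 (interval -0.42 to -0.28), and for Ocln it was 0.66 (interval 0.30 to 1.02), with the lower ratio in OE-LECs. The spread between cultures is not in these intervals, so whether BECs and LECs differ in response was not tested.

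The other tight junction lists are given by their counts, and their difference from the 9 genes was not tested. In OE-BECs, of 26 plaque and polarity genes that reached 10 reads, 13 were higher and 4 lower beyond the interval (27.4% and 30.0% of all genes), with a median of 0.30. Cgnl1 (paracingulin), a plaque protein, was 1.24-fold higher (16196 and 15455 reads). The called gene was Amotl2, an angiomotin that ties junctions to Hippo signalling, 3.46-fold higher from 1428 to 3786 reads. In OE-LECs 8 of 25 were higher and 6 lower (24.2% and 21.4% of all genes), with Cgnl1 1.25-fold higher. Prkcz was called lower there on 7 and 2 reads, with an interval that spanned 0 (up to 0.35). In skin 5 of 28 were higher and 11 lower (23.1% and 25.4% of all genes). Cgn (cingulin), a plaque protein of epithelia, was called higher from 5 and 60 reads (log2 ratio 3.21, interval 1.91 to 4.88), and Magi2 had 14 and 56 reads (3.08-fold higher).

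Of 32 other claudin and claudin-domain genes, 11 had at least 10 reads in the skin pair, 7 in the BEC pair and 6 in the LEC pair. In skin, Cldn12 (294 against 123 reads) was 3.11-fold lower under the cKO label (log2 ratio -1.64, interval -1.95 to -1.33). The other claudins called in skin, Cldn2, Cldn10 and Cldn23, had at most 8 reads in a library. For Cldn10 (up to 0.52) and Cldn23 (from -0.70) the interval spanned 0. In OE-BECs 5 of 12 such genes tested were called higher (8.02% of all genes were), all on few reads. Reads in Cont BECs and OE-BECs were 0 and 6 for Cldn4, 0 and 4 for Cldn13, and 0 and 7 for Cldn19. They were 1 and 9 for Cldn20 and 6 and 17 for Cldn22. All but Cldn22 reached the minimum only through the OE library, so the count does not describe a rise of claudins. Cldn17 was called lower on 8 and 1 reads. The intervals of Cldn13 (from -0.22) and Cldn17 (up to 0.28) spanned 0. No other claudin was called in OE-LECs, among 7 tested (2.09% of all genes were called lower and 2.77% higher). Of 12 other membrane proteins of the junction, Amica1 (also named Jaml), a leukocyte member of the JAM group, had 30 against 3 reads in the skin pair (log2 ratio -3.70, interval -6.06 to -2.02). Of the 8 with at least 10 reads in that pair, 3 were higher and 2 lower beyond the interval (23.1% and 25.4% of all genes). Cxadr, the coxsackievirus and adenovirus receptor, was 1.52-fold higher under the cKO label (346 and 684 reads). The tricellular protein gene Lsr was 1.44-fold higher (73 and 137 reads), Crb2 had 10 and 32 reads, and Clmp was 1.35-fold lower (162 and 156 reads). Igsf5 was called higher on 1 and 6 reads. In OE-BECs Crb1 was called higher on 0 and 6 reads and Amica1 lower on 4 and 0. In OE-LECs Amica1 was called higher on 2 and 9 reads. The intervals spanned 0 for Igsf5 in skin (from -0.84) and for Amica1 in OE-BECs (up to 0.98) and OE-LECs (from -0.33).

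**Figure D4:**
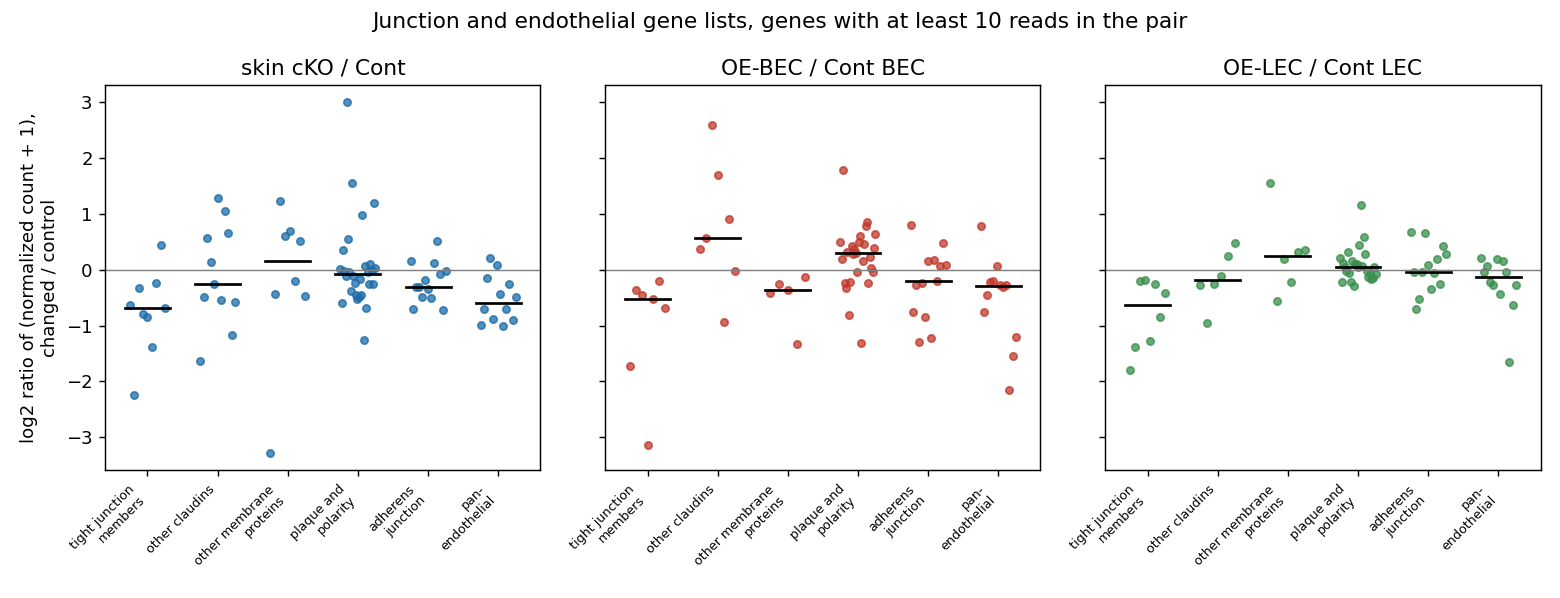
Log2 ratio of normalized counts plus 1, for genes of the tight junction group, 4 further junction lists and the pan-endothelial list that reached 10 reads in the pair. Each point is a gene, set apart sideways for display, and black lines are medians. The medians of the tight junction group are -0.68, -0.52 and -0.63, and that of the plaque and polarity genes in OE-BECs is 0.30.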

How the data were processed

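Libraries were made by the authors with the ScriptSeq v2 kit. Reads were trimmed (skewer), aligned to mm10 (STAR) and counted per gene (VERSE with its -S option), and the raw counts were deposited. The gene annotation is not given in the sources used here, and what the counting option means for strand was not resolved. Positions and lengths were taken from GENCODE M21 (mm10). Samples were grouped by their titles.

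CPM is the count per 1000000 reads of a library, with exact Poisson 95% intervals. Each cKO or OE library was normalized with its own control by the median of ratios of DESeq2 1.42.0 in R 4.3.3. Intervals of a ratio are exact binomial (Clopper-Pearson) ones on how reads divide within the pair, and cover counting error only, since reads copied by PCR are not independent molecules. Counts of 3 reads or fewer were treated as the floor. Medians used genes that reached 10 reads over a pair. The steps were run on simulated pairs with counting error only, which cannot cover spread between replicates or reads copied by PCR. Python 3.11.15 with scipy 1.17.1 was used.

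The genes and lists were chosen with earlier results of these data known. Beyond the tight junction genes, those named are the junction genes called with at least 20 normalized counts, the 3 highest per kilobase in each control library, the 3 closest in pattern to Cldn5, Cldn11, Cldn1 and Esam, checks of the labels, and others named after their values were seen, to account for a count or a list. Tried besides were size factors over the 6 libraries together, TMM factors of edgeR 4.0.16, and total counts with and without Rn45s and small RNA genes. Scaling to the pan-endothelial list was tried for the skin pair only. Other minimums, folds, pseudocounts and filters, and the longest transcript as the length, were tried too.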

Additional observations from a re-analysis of the deposited data

Results flagged for a closer look

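Cldn12 was flagged because its OE libraries lay on opposite sides of their controls, each by more than the counting interval. It had 746 reads in both Cont BECs and OE-BECs, a log2 ratio of 0.38 (interval 0.23 to 0.53) after normalization, and 3074 and 2990 reads in Cont LECs and OE-LECs, a log2 ratio of -0.27 (interval -0.34 to -0.20). With 1 library per condition, this difference between BECs and LECs was not tested.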

How the results depend on the processing

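No alternative reversed a called gene of the tight junction group. With size factors from all 6 libraries, TMM factors or total counts, the number of genes called was the same as in the report in each pair. A fold of more than 2 gave 2 called genes in skin and 3 in LECs, and a minimum of 20 normalized counts gave 2 in BECs, Cldn5 and Jam2. The median in skin was -0.62 with total counts, with or without Rn45s and small RNA genes, and 0.019 when scaled to the pan-endothelial list, by which the median of all genes was 0.69 and Cldn1, Cldn5, Tjp1 and Jam3 changed sign. The median in LECs was -0.41 over the 7 genes that reached 100 reads, since Cldn1 dropped out. With the longest transcript as the length, at least 7 of the 9 genes kept their rank in each library. Esam then moved ahead of Cldn5 in skin Cont BECs and in Cont LECs, where it came first. Depth limits Cldn1 and Cldn11 in culture, which had at most 20 reads. No paired analysis was possible because each condition has 1 library and no replicate numbers. A fit of OE over both cell types, with cell type as a block, would leave 1 residual degree of freedom and was not run.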

Other observations

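The adherens junction was led by the same genes in each control library. Cdh5, Ctnnb1 (beta-catenin) and Ctnna1 (alpha-catenin) had the highest levels per kilobase of all other junction genes, at 360, 241 and 88.9 CPM per kilobase in skin Cont BECs, 793, 324 and 297 in Cont BECs, and 463, 320 and 494 in Cont LECs. None of the 13 adherens junction genes was called by the 3-fold rule in any pair. Over all genes the rule called 2.41% lower and 5.17% higher in skin, 5.27% and 8.02% in BECs, and 2.09% and 2.77% in LECs. With 13 genes, no call is near these shares. The median log2 ratios of the 13 were -0.31 in skin, -0.21 in BECs and -0.03 in LECs. Ctnnb1 was 2.45-fold lower in OE-BECs (29784 and 9327 reads) and 1.44-fold lower in OE-LECs (43346 and 35223 reads). Cdh5 was 1.69-fold lower in OE-BECs and had a log2 ratio of -0.03 in OE-LECs.

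Genes with the closest pattern were sought over 6 libraries among 11153 genes with at least 10 CPM in the highest library, by the root mean square difference of centred log2 levels, with 0.5 CPM added. The pattern is a description over 6 libraries, which are pairs of the same origin. Closest to Esam were Fkbp1a (difference 0.0887), F11r (0.112), which is of the tight junction group itself, and Sardh (0.145). Cldn5 was closest to Kcnd3 (0.262), AU021092 (0.282) and P3h2 (0.299), while Ocln was at 0.600 and Jam2 at 0.681. For Cldn11 they were Sowahc (0.194), Fxyd6 (0.209) and Dtx1 (0.231), and for Cldn1 they were Mest (0.223), Trabd2b (0.261) and Tmem204 (0.267).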
